A study of Mus musculus with 6 samples.

Results

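The genes examined were the 10 effector T cell cytokine genes Ifng, Il4, Il5, Il13, Il17a, Il17f, Il21, Il22, Csf2 and Il3, chosen by symbol from a table of 22939 mouse genes. RNA-seq had been performed on control-Treg (ctrl-Treg) cells in 3 libraries and, in 3 more, on Sora-Treg cells, which were exposed to sorafenib (Sora), a multikinase inhibitor used against liver cancer. In both groups, naive CD4+ T cells from the spleen and lymph nodes of Foxp3GFP knock-in C57BL/6J mice, which carry GFP in the Foxp3 gene, were activated with plate-bound anti-CD3 and anti-CD28 antibodies. Transforming growth factor beta 1 (TGF-β1) and antibodies against IFN-γ and IL-4 were present in both groups, Sora was added from the start of culture, and GFP+ cells were sorted. The cells are therefore induced Treg cells made in culture, not Treg cells taken from tissue, and 2 of the 10 cytokine proteins were blocked by antibody in every culture. The dose of Sora, the length of culture and the age of the animals are not given for these libraries in the sources used here. Neither is whether the libraries of a group came from separate cultures or animals, so p-values measure the spread between these libraries, which may be technical.

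Effector CD4+ T cells are divided by the cytokines they make. Th1 cells secrete IFN-γ, which activates macrophages. Th2 cells secrete IL-4, IL-5 and IL-13, which drive antibody class switching, eosinophils and mucus, and Th17 cells secrete IL-17A, IL-17F and often IL-21 and IL-22. GM-CSF, the product of Csf2, and IL-3 act on myeloid cells and are made by several of these subsets. Treg cells are known to keep most of these genes low, Foxp3 being the transcription factor that sets their identity.

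Total counts per library ranged from 30727686 to 37717324, so that 3 counts, taken as the floor, equalled 0.0795 to 0.0976 CPM on those totals, without TMM factors. The CPM values of genes are counts scaled to library size, with TMM factors. That floor and the intervals on counts below cover counting error only. Foxp3 averaged 258 ± 8.98 CPM in ctrl-Treg and 272 ± 4.74 CPM in Sora-Treg libraries (SD, n = 3), so Foxp3 RNA of the labelled cell type was present in both groups. Of the Treg and T cell markers listed, 12 were tested, 10 of them higher and 0 lower in Sora-Treg cells (edgeR adjusted p under 0.05). With libraries scaled by their totals alone, 7 were higher and 1 lower. Over all tested genes 29.7% were higher and 29.9% lower at that threshold, shares that belong beside the marker counts below too. Libraries differed in markers of other cells. The 10 myeloid markers summed to 93.5 and 93.3 CPM in ctrl-Treg libraries 1 and 2, to 24.9 CPM in ctrl-Treg library 3 and to between 21.1 and 43.4 CPM in Sora-Treg libraries, and 5 of the 7 tested were lower in Sora-Treg cells. The median log2 fold change of the tested myeloid markers was -1.64, and it was 0.55 with ctrl-Treg library 3 as the only control. The 7 B cell markers summed to between 10.2 and 11.4 CPM in ctrl-Treg and between 6.21 and 7.81 CPM in Sora-Treg libraries, and all 5 that were tested were lower. Some results are also given with ctrl-Treg library 3 as the only control, a setting chosen after the marker levels had been seen. In it the spread comes from the Sora-Treg libraries alone, and the lone control is assumed to vary like them. Not every result that moved in that setting is restated. For the tested B cell markers the median log2 fold change went from -2.15 to -1.72. The number of genes that passed moved for these markers and for other gene lists too. The part of myeloid and B cells in the cytokine values was otherwise not tested. In a bulk sample, fewer cells that make a cytokine and less RNA in each cell cannot be told apart.

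All 10 cytokine genes were detected and tested. Csf2, Il5 and Il13 fell in Sora-Treg cells, Il21, Il22 and Il17f rose, and Ifng, Il17a, Il4 and Il3 did not pass the test. A gene was called when the adjusted p of edgeR's quasi-likelihood test, corrected over 13463 genes, was under 0.05 and the log2 fold change (log2FC) of Sora-Treg over ctrl-Treg cells lay beyond 1. By that rule 6 of 10 cytokine genes were called, against 11.3% of all genes tested. In each direction 3 were called, against 6.3% of tested genes higher and 4.97% lower in Sora-Treg cells. By the adjusted p alone the same 6 genes passed, against 59.6% of all genes (29.7% of all genes higher and 29.9% lower), so a passing p alone was common in this comparison. With libraries scaled by their totals alone, 2862 genes passed as higher and 5614 as lower. Ctrl-Treg and Sora-Treg libraries were fully separate in 5 of 10 cytokine genes, against 63.7% of all genes. The median log2FC of the 10 was -0.25, beside -0.0035 over all tested genes. Il22 passed the filter on low counts only through the Sora-Treg libraries, and Il5 and Il4 passed because of the ctrl-Treg libraries, where they were higher. With ctrl-Treg library 3 as the only control, Il5, Il13, Il21 and Csf2 had log2FC values of -3.75, -1.59, 2.43 and -3.29, and Il17f had 0.72.

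**Figure D1:**
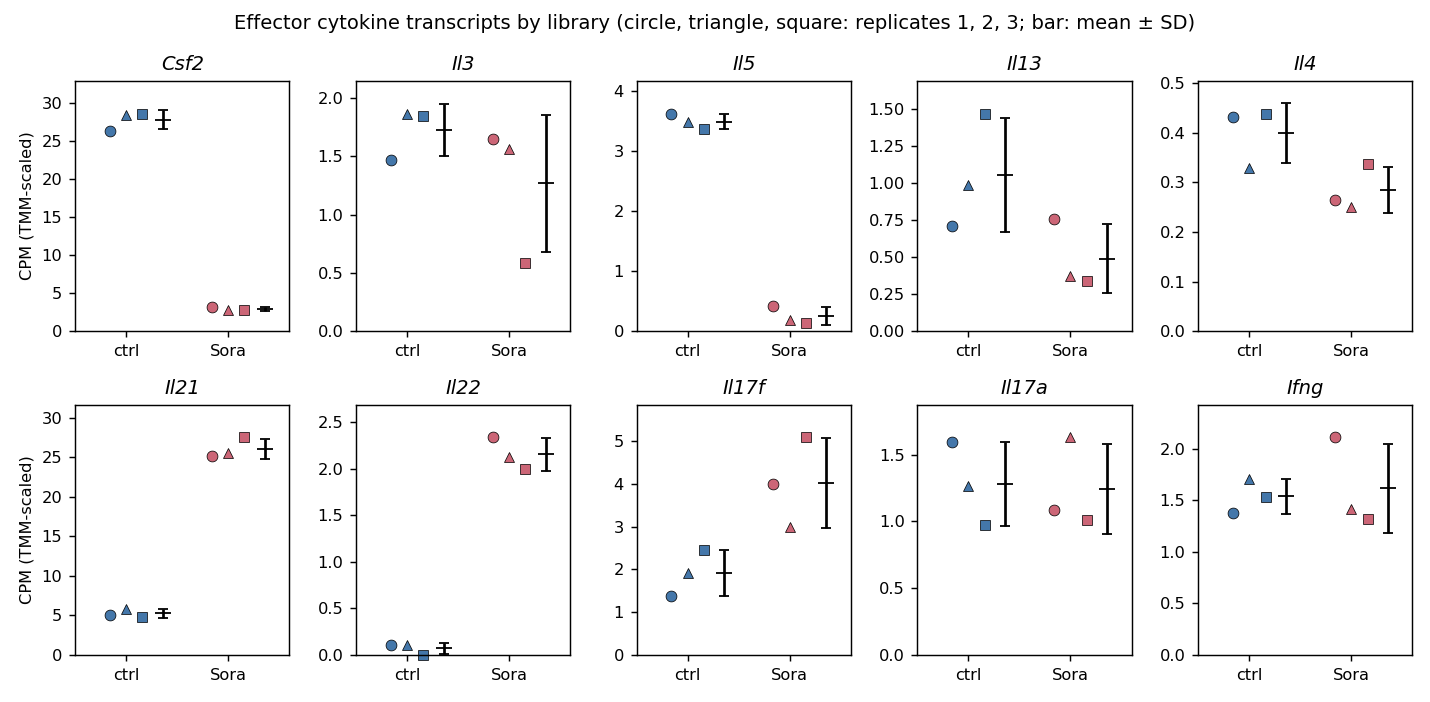
TMM-scaled CPM (vertical axis, its own scale in each panel, starting at 0) of the 10 cytokine genes in 3 ctrl-Treg and 3 Sora-Treg libraries, with points for libraries and bars for the mean ± SD. Csf2 and Il5 in Sora-Treg libraries lie below every ctrl-Treg library, Il21, Il22 and Il17f lie above, and the 5 other genes overlap.

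To show 3 of the genes that changed beside their upstream sequence, the 250 bases before the transcript start of Il5 and Il13, which fell, and Il21, which rose, are printed below from RefSeq on GRCm38.p6. Both RefSeq and GENCODE M21 place the start of these 3 genes at the same base. The letters run 5′ to 3′ on the strand of the gene and end at the base before the start. Capitals mark the core of the site of nuclear factor of activated T cells (NFAT), the factor that T cell receptor signals send to the nucleus, as GGAAA or its reverse complement TTTCC. The Il5 window is chr11:53720544-53720793 (plus strand), the Il13 window chr11:53634703-53634952 (minus strand) and the Il21 window chr3:37232637-37232886 (minus strand).
Il5: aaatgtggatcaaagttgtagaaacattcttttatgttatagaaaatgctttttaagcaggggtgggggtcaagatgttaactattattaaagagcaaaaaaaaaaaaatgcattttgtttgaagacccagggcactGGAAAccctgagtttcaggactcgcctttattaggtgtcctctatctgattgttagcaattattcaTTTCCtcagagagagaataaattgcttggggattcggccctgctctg
Il13: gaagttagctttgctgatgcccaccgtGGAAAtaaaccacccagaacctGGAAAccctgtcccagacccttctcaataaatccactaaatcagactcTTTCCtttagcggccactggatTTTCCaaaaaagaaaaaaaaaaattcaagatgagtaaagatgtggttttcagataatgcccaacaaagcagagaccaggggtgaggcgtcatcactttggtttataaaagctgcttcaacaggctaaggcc
Il21: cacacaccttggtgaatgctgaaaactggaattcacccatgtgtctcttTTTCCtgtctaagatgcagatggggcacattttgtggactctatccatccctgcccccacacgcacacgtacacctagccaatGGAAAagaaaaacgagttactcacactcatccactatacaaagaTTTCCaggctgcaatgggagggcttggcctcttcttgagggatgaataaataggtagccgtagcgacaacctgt
The NFAT core was found 2 times before Il5, 4 times before Il13 and 3 times before Il21, on either strand. Of 32851 mouse promoter windows of that length, 55.6% held it at least once and 6.39% at least 3 times. The AP-1 letters TGANTCA and the STAT letters TTCNNNGAA, found in 6.75% and 7.02% of all windows, were in none of these 3. TATAAA, found in 12.4% of windows, was before Il13 on both strands in overlapping letters and before neither of the others. Genes that moved in opposite directions thus both carried the NFAT core letters, and a match of letters is a description, not evidence of binding.

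Csf2 and Il3 encode the 2 cytokines that share the common beta receptor chain with IL-5. Csf2 had the highest FPKM of the 10 in ctrl-Treg cells. Its counts were 1038, 1035 and 913 in ctrl-Treg and 96, 89 and 100 in Sora-Treg libraries. In CPM these were 26.3, 28.4 and 28.6 against 3.16, 2.79 and 2.81, so every Sora-Treg library was far below every control. Mean Csf2 fell from 27.8 ± 1.24 to 2.92 ± 0.21 CPM (SD, n = 3), a 9.52-fold decrease, with a log2FC of -3.25 ± 0.10 (SE, adjusted p = 2.80e-18 by edgeR). Only 0.951% of tested genes had a larger absolute log2FC.

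Il3, the neighbour of Csf2 on chromosome 11, had 58, 68 and 59 counts in ctrl-Treg and 50, 50 and 21 in Sora-Treg libraries. In TMM-scaled CPM, Sora-Treg libraries 1 and 2 (1.65 and 1.57) were within the range of the controls (1.47 to 1.87) and library 3 was below it, at 0.59. Mean Il3 was 1.73 ± 0.22 CPM without and 1.27 ± 0.59 CPM with Sora (SD, n = 3), and the log2FC of -0.46 did not pass the test (95% interval -1.08 to 0.17, adjusted p = 0.230 by edgeR). The value rested on Sora-Treg library 3, since without that library the log2FC was -0.10. The FPKM of Csf2 was 10.7 ± 0.98 times that of Il3 in ctrl-Treg and 1.87 ± 1.11 times in Sora-Treg libraries, a ratio chosen after the values had been seen (two-sided exact permutation p = 0.1, the smallest that 3 libraries against 3 can give).

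Among the Th2 cytokines, Il5, which encodes the growth and survival factor of eosinophils, fell the most. Its counts were 143, 127 and 108 in ctrl-Treg and 13, 6 and 5 in Sora-Treg libraries, which did not overlap. The mean fell from 3.50 ± 0.13 to 0.25 ± 0.15 CPM (SD, n = 3), 14.0-fold, with a log2FC of -3.81 ± 0.33 (SE, adjusted p = 8.77e-10 by edgeR). Summed over libraries, the counts of Il5 per total counts in Sora-Treg cells were 0.0645 of those in ctrl-Treg cells (95% exact interval 0.0408 to 0.0975).

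Il13, which encodes a cytokine that acts on epithelium and smooth muscle through the IL-4 receptor alpha chain, was lower with overlap between the groups. Counts were 28, 36 and 47 in ctrl-Treg and 23, 12 and 12 in Sora-Treg libraries, Sora-Treg library 1 lying among the controls in CPM. The mean fell from 1.06 ± 0.38 to 0.49 ± 0.23 CPM (SD, n = 3), with a log2FC of -1.11 ± 0.41 (SE, adjusted p = 0.0245 by edgeR). The call was lost when any of 4 libraries was left out. The adjusted p of Il13 was 0.0536 without ctrl-Treg library 2, 0.153 without ctrl-Treg library 3, 0.0852 without Sora-Treg library 2 and 0.117 without Sora-Treg library 3.

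Il4, the cytokine that starts Th2 differentiation, was close to the limit of detection. It had 17, 12 and 14 counts in ctrl-Treg and 8, 8 and 12 in Sora-Treg libraries, and 1 Sora-Treg library overlapped the controls. The log2FC of Il4 was -0.48 (95% interval -1.40 to 0.44, adjusted p = 0.393 by edgeR), and a change of 2-fold lower was within that interval. The FPKM ratio of Il5 to Il13, also chosen after the values had been seen, went from 2.87 ± 1.11 to 0.39 ± 0.06 (two-sided exact permutation p = 0.1). That of Il13 to Il4 was 1.30 ± 0.44 and 0.87 ± 0.47 (p = 0.2 by the same exact test). The groups did not overlap in the first ratio and overlapped in the second.

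Basophils and mast cells also transcribe Il4 and Il13. Of 5 of their markers in the tables none was abundant enough to be tested. The largest count in any library was 10 for Hdc, 4 for Fcer1a and 1 for Mcpt4, Cma1 and Gata2. The 5 summed to between 0.156 and 0.355 CPM in ctrl-Treg and between 0.0659 and 0.168 CPM in Sora-Treg libraries, and Fcer1a, the IgE receptor chain that defines both cells, had 4 counts in ctrl-Treg library 1 and 0 in every other library.

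Il21 and Il22 rose. Il21 encodes a helper cytokine that acts on B cells, CD8+ T cells and the T cells that make it. Its counts were 199, 214 and 155 in ctrl-Treg and 765, 816 and 981 in Sora-Treg libraries, with every Sora-Treg library far above every control. The mean rose 4.96-fold, from 5.26 ± 0.54 to 26.1 ± 1.26 CPM (SD, n = 3), with a log2FC of 2.31 ± 0.09 (SE, adjusted p = 5.91e-16 by edgeR). Gm36168, an overlapping long noncoding RNA gene, had at most 3 counts in any library.

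Il22, which encodes a cytokine that acts on epithelial barriers and not on T cells, was nearly absent from ctrl-Treg cells. Its counts were 4, 4 and 0 in ctrl-Treg and 71, 68 and 71 in Sora-Treg libraries. The control values lay about the floor of 3 counts, whereas the Sora-Treg libraries were close to each other. The mean rose from 0.0705 ± 0.0612 to 2.15 ± 0.17 CPM (SD, n = 3), with a log2FC of 4.80 ± 0.48 (SE, adjusted p = 1.07e-08 by edgeR). Because 8 control counts support the fold, it is better given as the ratio of summed counts per total, which was 26.7 for Il22 (95% exact interval 13.3 to 62.6). Iltifb, a near-identical copy of Il22, had at most 2 counts, and the counting may have divided reads among the 2 copies.

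The paired genes Il17f and Il17a, which lie side by side on chromosome 1 and encode the neutrophil-recruiting cytokines of Th17 cells, gave different calls, although a difference between the 2 genes was not shown. Il17f had 54, 70 and 78 counts in ctrl-Treg and 121, 95 and 181 in Sora-Treg libraries. The groups did not overlap, but Sora-Treg library 2 lay near the highest control, at 2.98 against 2.44 CPM. The mean rose from 1.91 ± 0.54 to 4.02 ± 1.05 CPM (SD, n = 3), with a log2FC of 1.09 ± 0.23 (SE, adjusted p = 3.00e-04 by edgeR). It was just past the fold limit and dropped to 0.89 without ctrl-Treg library 1 and to 0.87 without Sora-Treg library 3. With ctrl-Treg library 3 as the only control, Il17f had a log2FC of 0.72, under the fold limit.

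Il17a had 63, 46 and 31 counts in ctrl-Treg and 33, 52 and 36 in Sora-Treg libraries, fully interleaved. Its log2FC was -0.05 (95% interval -0.65 to 0.55, adjusted p = 0.899 by edgeR). The FPKM ratio of Il17f to Il17a was 0.98 ± 0.50 in ctrl-Treg and 2.10 ± 0.96 in Sora-Treg libraries, which did not separate the groups (two-sided exact permutation p = 0.2).

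Ifng, the Th1 cytokine gene, had 54, 62 and 49 counts in ctrl-Treg and 64, 45 and 47 in Sora-Treg libraries. Sora-Treg library 1 was the highest of the 6 in CPM, and the other two Sora-Treg libraries were below the median control. Mean Ifng was 1.54 ± 0.17 and 1.61 ± 0.43 CPM (SD, n = 3), with a log2FC of 0.07 (95% interval -0.46 to 0.60, adjusted p = 0.850 by edgeR). The sign of the Ifng difference turned to -0.05 when libraries were scaled by their totals alone. CD8+ T cells and other lymphocytes can transcribe Ifng and Il22. Genes listed as their markers summed to between 24.0 and 25.8 CPM in ctrl-Treg and between 18.6 and 20.7 CPM in Sora-Treg libraries. Of the 4 that were tested, 0 were higher and 2 lower, against 29.7% of all tested genes higher and 29.9% lower. Cd1d1 fell from 7.47 ± 0.64 to 2.59 ± 0.43 CPM and Cd8a from 2.65 ± 0.14 to 1.62 ± 0.19 CPM (SD, n = 3). Cd8b1 did not pass, at 11.3 and 11.5 CPM, and neither did Il1rl1. The lower sum thus reflects Cd1d1, which is not particular to these cells, more than the CD8 genes. What part these cells had in the cytokine values was not tested.

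**Figure D2:**
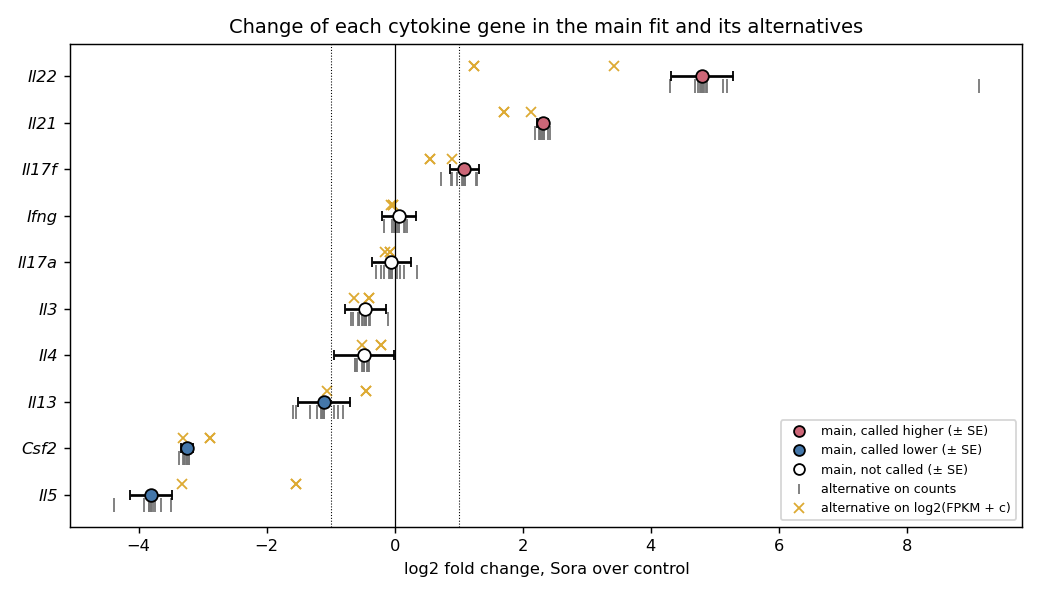
Log2FC (horizontal axis, Sora-Treg over ctrl-Treg) of each cytokine gene, with circles for the edgeR fit ± SE, grey ticks for other settings on counts, crosses for limma on log2(FPKM + 1) or log2(FPKM + 0.1), and dotted lines at the fold limit of 1. Il21, Il22, Csf2 and Il5 stay beyond the limit under all settings, Il17f and Il13 straddle it, and Ifng and Il17a lie on both sides of 0.

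Levels were compared between genes only per length, as FPKM, in which a count is divided by the length of the gene and the library total. In ctrl-Treg cells Csf2 led at 22.5 ± 0.94 FPKM (SD, n = 3), followed by Il5 at 2.37 ± 0.09 and Il3 at 2.12 ± 0.27. Il3 and Il21 (1.72 ± 0.17) overlapped, Ifng came next at 1.32 ± 0.14, and from Ifng through Il17a, Il17f, Il13 and Il4 each gene overlapped its neighbour in the order. Il22 was last at 0.0524 ± 0.0454 FPKM. In Sora-Treg cells the order began with Il21 at 7.89 ± 0.38 FPKM, above Csf2 at 2.19 ± 0.16. From Csf2 through Il17f, Il22, Il3, Ifng and Il17a, neighbours in the order overlapped, and Il4, Il13 and Il5 formed the lowest group, with Il5 last at 0.158 ± 0.097 FPKM. Thus the gene that was second in ctrl-Treg cells was last in Sora-Treg cells.

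The summed FPKM of the 10 genes was 33.9 ± 1.48 in ctrl-Treg and 18.3 ± 0.90 in Sora-Treg libraries, without overlap (two-sided exact permutation p = 0.1). Without Csf2 the order was the other way, 11.4 ± 0.53 in ctrl-Treg and 16.1 ± 0.74 in Sora-Treg libraries (same exact test, p = 0.1). Csf2 made up 66.5% ± 0.15 of the sum in ctrl-Treg and 12.0% ± 0.29 in Sora-Treg libraries. Il21 took 5.08% ± 0.49 and 43.3% ± 3.71, Il22 0.157% ± 0.136 and 8.08% ± 0.33, and Il17f 2.98% ± 0.73 and 10.8% ± 2.98. The share of Il5 was 7.02% ± 0.58 in ctrl-Treg and 0.849% ± 0.476 in Sora-Treg libraries. Shares add to a whole, so the share of a gene such as Ifng, at 3.89% ± 0.28 and 6.96% ± 1.50, moves with the others whatever its own level does.

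**Figure D3:**
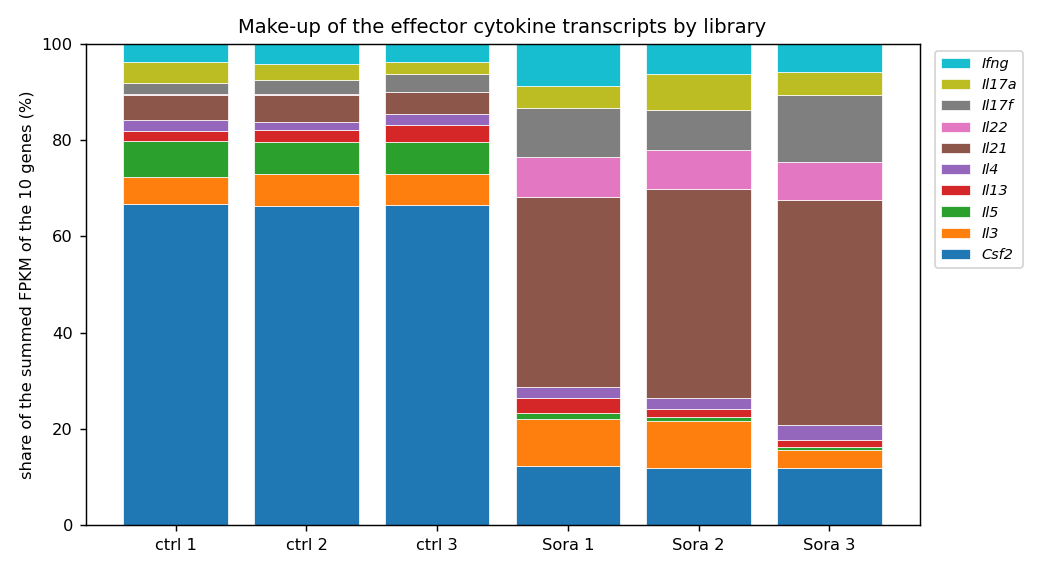
Share (vertical axis, percent) of each cytokine gene in the summed FPKM of the 10 genes, as 1 stacked bar per library. Csf2 holds 66.5% on average in ctrl-Treg libraries and Il21 holds 43.3% in Sora-Treg libraries.

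The 10 genes lie in 4 stretches of the genome, and their protein-coding neighbours were read in the RefSeq order. Of 24 neighbours, 19 were tested, of which 4 were higher, 6 lower and 9 did not pass an adjusted p of 0.05, beside 59.6% of all genes that passed. Directions below describe single genes and not a pattern of the stretches. On chromosome 11, Il4, Il13 and Il5 flank Rad50, a DNA repair gene whose introns hold a known control region for the Th2 genes. Rad50 fell by 0.70 ± 0.04 on the log2 scale (SE, adjusted p = 4.15e-12 by edgeR), between Il13 at -1.11 and Il5 at -3.81, which both fell. Irf1, next to Il5, had a log2FC of 0.09 (adjusted p = 0.0880 by edgeR), and of -0.03 with libraries scaled by their totals alone. P4ha2, which encodes a collagen prolyl hydroxylase and adjoins Csf2, rose by 1.05 ± 0.04 (SE, adjusted p = 3.62e-17 by edgeR), opposite to Csf2. On chromosome 10, Il22 rose while Ifng, beyond Iltifb, was at 0.07 and Dyrk2 and Cand1, on the far side of Ifng, were both at 0.03. On chromosome 1, Mcm3, a replication gene beside Il17f, fell by 0.72 ± 0.03 (SE, adjusted p = 5.51e-15 by edgeR). Adjacent genes that both passed the adjusted p and moved in opposite directions included P4ha2 and Csf2, Mdm1 and Il22, Il17f and Mcm3, and Il2 and Il21. Pairs with none of the 10 cytokine genes did so too, namely Pdlim4 (-1.80) and P4ha2 (1.05), and Rap1b (0.14) and Mdm1 (-0.85).

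The widest contrast between neighbours was on chromosome 3. Il2, which encodes the T cell growth factor, lies next to Il21 and fell from 74.1 ± 3.91 to 1.53 ± 0.14 CPM (SD, n = 3), a log2FC of -5.59 ± 0.08 (SE, adjusted p = 1.41e-23 by edgeR). The FPKM ratio of Il21 to Il2, chosen after the values had been seen, was 0.0213 ± 0.0031 in ctrl-Treg and 5.12 ± 0.36 in Sora-Treg libraries (two-sided exact permutation p = 0.1). Cetn4, on the other side of Il21, rose by 1.54 ± 0.16 on the log2 scale (SE, adjusted p = 2.99e-08 by edgeR), in the same direction as Il21.

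**Figure D4:**
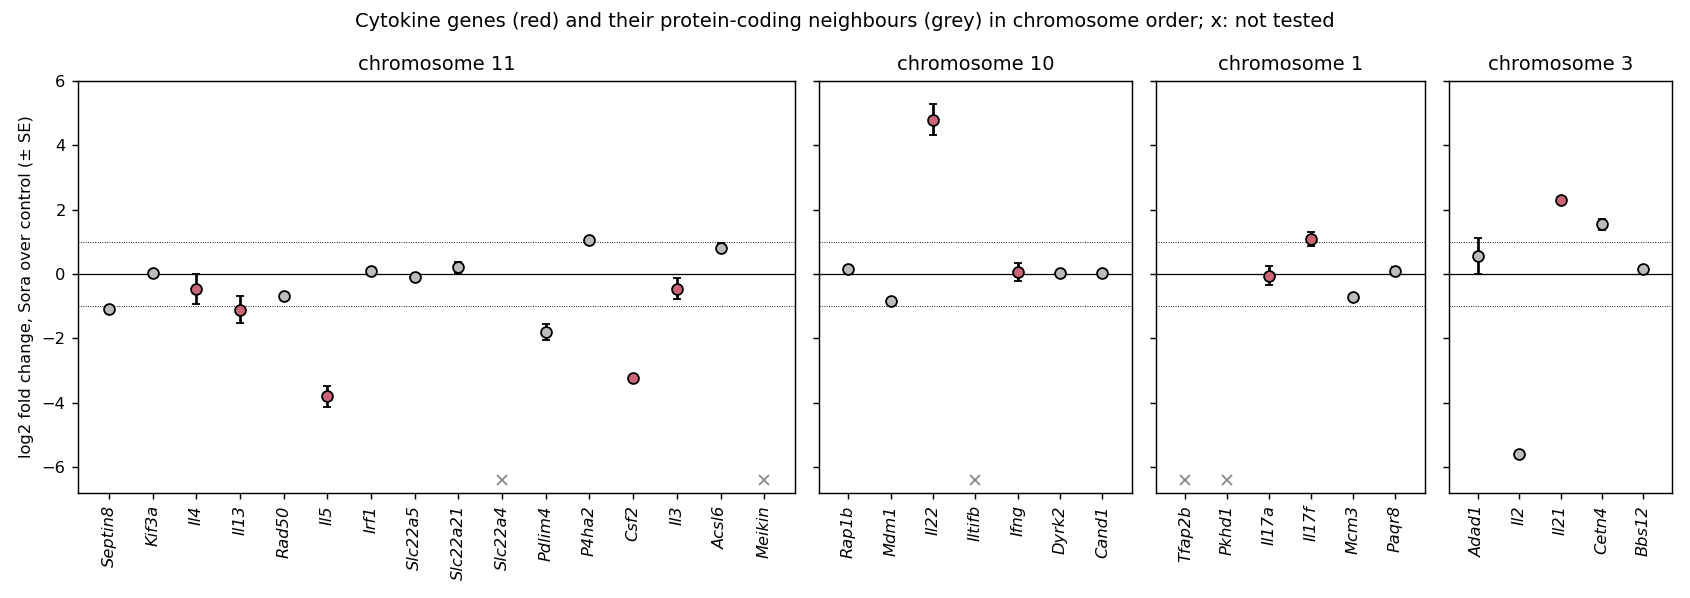
Log2FC (vertical axis, Sora-Treg over ctrl-Treg, ± SE) of the cytokine genes (red) and their protein-coding neighbours (grey) in order along 4 chromosomes, spaced evenly and not by distance, with crosses for genes not tested. Il2 at -5.59 and Il21 at 2.31 are adjacent on chromosome 3, and Il22 at 4.80 lies near Ifng at 0.07 on chromosome 10.

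Other cytokines of T cells moved both ways as well. Of 21 tested, 9 were higher, 11 lower and 1 did not pass the adjusted p of 0.05, with a median log2FC of -0.21 beside -0.0035 over all tested genes. By the adjusted p alone, 29.7% of all genes were higher and 29.9% lower. Beyond the fold limit 5 were called higher and 6 lower, against 6.3% and 4.97% of all genes. Il24, of the same IL-10 family as Il22, rose from 8.30 ± 0.53 to 163 ± 2.64 CPM (SD, n = 3), a log2FC of 4.30 ± 0.05 (SE, adjusted p = 1.41e-25 by edgeR). Tgfb3, whose product can act in Treg and Th17 differentiation, rose by 5.84 ± 0.09 (SE, adjusted p = 1.05e-23 by edgeR). Lif, a member of the IL-6 family, rose by 1.11 ± 0.03 (SE, adjusted p = 4.57e-20 by edgeR). The 6 called lower were Il2 (-5.59, given above), Ccl4 (-2.65), Ccl3 (-2.32), Areg (-1.79), Tnf (-1.54) and Il9 (-1.52).

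Receptor chains for the 10 cytokines were examined next. Of 17 genes listed, 12 were tested, of which 8 rose, 1 fell and 3 did not pass, against 29.7% of all tested genes higher and 29.9% lower. The median log2FC was 0.27, and beyond the fold limit 3 were called higher and 0 lower by edgeR, against 6.3% and 4.97% of all genes. Ifngr1, the ligand-binding chain for IFN-γ, rose from 131 ± 5.09 to 361 ± 1.04 CPM (SD, n = 3), by 1.46 ± 0.03 on the log2 scale (SE, adjusted p = 1.29e-20 by edgeR). Il4ra, the chain shared by IL-4 and IL-13, rose from 263 ± 1.40 to 554 ± 8.69 CPM, by 1.07 ± 0.03 (SE, adjusted p = 1.18e-19 by edgeR). Il21r and Ifngr2 rose less, by 0.31 ± 0.03 and 0.36 ± 0.05 (SE). The 1 that fell was Csf2ra, which encodes the GM-CSF-binding chain, by 0.22 ± 0.09 (SE, adjusted p = 0.0338 by edgeR), named after its values had been seen, and its log2FC was -0.11 with ctrl-Treg library 3 as the only control. The genes for the chains that bind IL-5, IL-22 and IL-17A with its partner (Il5ra, Il22ra1, Il22ra2 and Il17rc) had at most 2 counts in any library and were not tested. Myeloid cells transcribe Csf2ra. With libraries scaled by their totals alone, which lowered the median of all genes to -0.119 on the log2 scale, 7 receptor genes were higher and 3 lower.

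Transcription factors that direct the effector lineages moved both ways. Of 19 tested, 11 rose, 4 fell and 4 did not pass, with a median log2FC of 0.23, and with libraries scaled by their totals alone 10 were higher and 8 lower. Over all tested genes 29.7% were higher and 29.9% lower. Beyond the fold limit 5 were called higher and 0 lower by edgeR, against 6.3% and 4.97% of all genes. The 4 with the smallest adjusted p all rose. Maf, which binds the Il21 and Il4 promoters, rose from 18.6 ± 0.57 to 68.1 ± 6.12 CPM (SD, n = 3), by 1.87 ± 0.06 on the log2 scale (SE, adjusted p = 2.21e-17 by edgeR). Nfil3, a repressor of Th2 cytokine genes in T cells, rose by 1.74 ± 0.04, Runx3, known for binding an Il4 silencer, by 1.14 ± 0.03, and Stat3, which relays IL-6, IL-21 and IL-23 signals, by 0.78 ± 0.02 (SE). Gata3 and Tbx21 were picked after their values had been seen. Gata3 of Th2 cells did not pass at -0.04 ± 0.04 and neither did Tbx21 of Th1 cells at -0.52 ± 0.23 (SE, adjusted p = 0.375 and 0.0586 by edgeR). Both passed as lower with libraries scaled by their totals alone, at -0.16 and -0.63 (adjusted p = 0.00223 and 0.0215).

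Factors that carry T cell receptor signals to cytokine genes moved both ways. Of 20 tested, 9 rose, 10 fell and 1 did not pass, with a median log2FC of -0.07, against 29.7% of all genes higher and 29.9% lower. Beyond the fold limit 1 was called higher and 5 lower, against 6.3% and 4.97% of all genes. With libraries scaled by their totals alone 7 were higher and 11 lower at any fold. Nr4a3, Nr4a1 and Egr3, early response genes of the receptor, fell by 1.68 ± 0.03, 1.31 ± 0.03 and 1.87 ± 0.05 on the log2 scale (SE). Fosl2, an AP-1 subunit, rose from 141 ± 2.50 to 401 ± 3.93 CPM (SD, n = 3), by 1.51 ± 0.03 (SE, adjusted p = 1.48e-21 by edgeR).

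Genes for proteins that bind cytokine mRNA and set its decay moved both ways. Of 10 tested, 3 rose, 4 fell and 3 did not pass, with a median log2FC of -0.07, and 6 were lower with libraries scaled by their totals alone. Of these only Zfp36 passed the fold limit, against 6.3% of all genes called higher and 4.97% lower. By the adjusted p alone, 59.6% of all genes passed. Zfp36, which encodes tristetraprolin, a protein that directs the decay of Csf2 and other AU-rich mRNAs, rose from 47.5 ± 0.62 to 107 ± 2.51 CPM (SD, n = 3), by 1.17 ± 0.04 on the log2 scale (SE, adjusted p = 4.04e-17 by edgeR). Zc3h12d and Zfp36l2, of related function, rose by 0.58 ± 0.03 and 0.65 ± 0.03, and Elavl1, which encodes the stabilising protein HuR, fell by 0.30 ± 0.04 (SE). The other genes of this list that fell were Zfp36l1, Zc3h12a and Khsrp, at -0.16, -0.12 and -0.10. Zfp36l1 is of the same family as Zfp36, so related genes moved both ways. RNA-seq of this kind measures the level of an mRNA and not its decay.

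**Figure D5:**
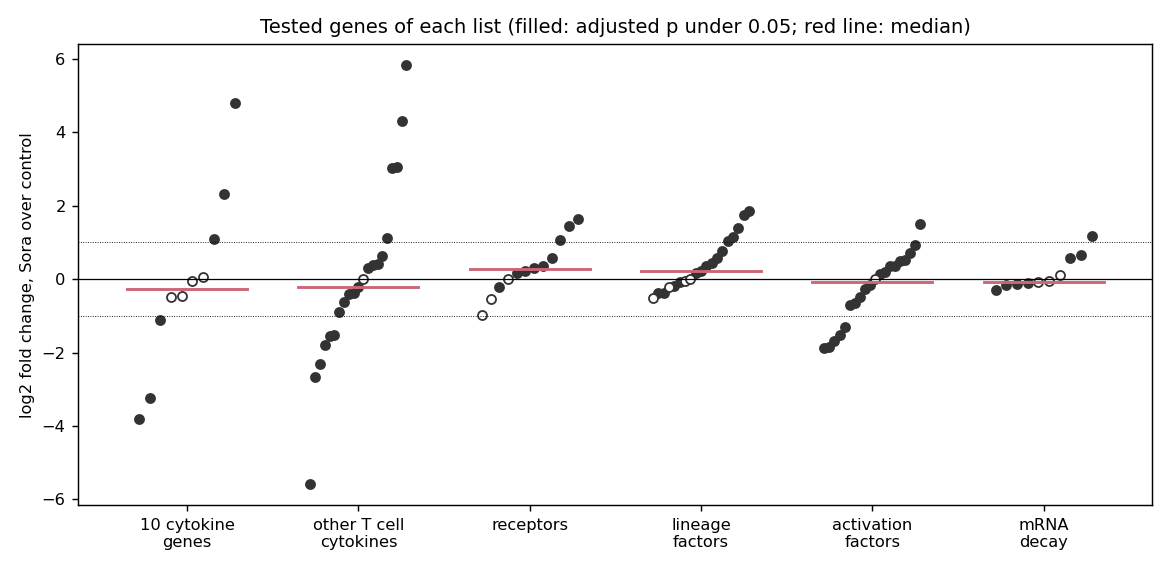
Log2FC (vertical axis, Sora-Treg over ctrl-Treg) of every tested gene in 6 lists, with filled points for an edgeR adjusted p under 0.05 and red lines for medians. The 10 cytokine genes spread from -3.81 to 4.80 about a median of -0.25, and receptors have a median of 0.27.

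The genes whose log2 CPM followed each cytokine most closely over the 6 libraries were listed by Pearson's r, as a description. For Csf2 these were Ephx1 (r = 0.9998) and Ccdc74a, with log2FC values of -1.17 and -2.72. For Il21 they were Pgd (r = 0.9997) and Nisch, at 0.72 and 0.51, and for Il5 they were Zhx2 (r = 0.998) and Snrpd3, at -0.95 and -0.26. Il22 was followed by Rab43 and Tmem67, and Il17f by Gm38426 (r = 0.993) and Spatc1l. For Il13 they were Gdpd1 and Gm10224, for Il3 1810044D09Rik and Rslcan18, and for Il4 Vezf1 and Sapcd2. Ifng had Nfkbil1 (r = 0.977) and Tomm6, and Il17a had Iws1 and Scoc (r = 0.968), the lowest value named. With 6 points in 2 groups and 13463 genes to choose from, an r near 1 is easily reached and says nothing of shared control.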

How the data were processed

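RNA-seq of 3 ctrl-Treg and 3 Sora-Treg libraries was used, grouped and numbered by the sample titles. Raw counts and FPKM values, both by gene symbol, were deposited by the authors. The methods of the study name BGISEQ-500 sequencing, Bowtie2 and GRCm38, whereas the submitters' processing notes list fastp, HISAT2, HTSeq, R 3.2.0, DESeq2 and GRCm39. The counting options, strand treatment and annotation release are not given in the sources used here, so overlapping genes and close copies are uncertain. Deposited FPKM values could be rebuilt from the counts with a fixed length for each gene (largest relative difference of the implied length 1.64e-06), so they add no second measurement.

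Counts were tested with edgeR 4.0.16 in R 4.3.3 (quasi-likelihood F test, TMM scaling, no covariate, Benjamini-Hochberg adjustment). The filterByExpr filter kept 13463 genes with a CPM above 0.293 in at least 3 libraries and a total of at least 15 counts. The biological coefficient of variation was 4.29%. Standard errors were derived from the F statistic. Single ratios were compared with two-sided exact permutation tests, which cannot go below 0.1 here. Ratios of summed counts have 95% exact (Clopper-Pearson) intervals. Libraries of a group differed by more than sampling noise (chi-square per degree of freedom 3.36 to 5.91). Same-numbered libraries did not deviate together (correlations -0.0438, 0.0591 and 0.0299), so numbers were not taken as pairs. The scripts were checked on simulated data.

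The cytokine genes and gene lists were chosen with earlier results of these data known. Named genes were all 10 cytokine genes, at most 4 of each list by adjusted p, and the 2 genes most like each cytokine gene. Neighbours along a chromosome were named after their values had been seen, as was any other gene. Alternatives were RLE, upper quartile and library-total scaling, other filters, DESeq2 1.42.0, robust fitting, limma 3.58.1 on log2(FPKM + 1) or log2(FPKM + 0.1), the replicate block and leaving out each library. Using ctrl-Treg library 3 as the only control was added after the marker levels had been seen. RefSeq on GRCm38.p6, where 97.5% of symbols matched, gave promoter windows and gene order. Of the 10 cytokine genes, 7 had RefSeq and GENCODE M21 starts within 10 bases. Il13ra2, Trac, Trbc1, Trbc2, Trdc, Tcrg-C1, Mcpt8, Cpa3, Ms4a2, Tpsb2 and Prss34 were not analysed here.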

Additional observations from a re-analysis of the deposited data

How the results depend on the processing

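Csf2, Il5, Il21 and Il22 were called in the same direction under each of 18 alternatives, with log2 fold changes from -3.37 to -2.88, from -4.39 to -1.55, from 1.71 to 2.43 and from 1.24 to 9.13. The 9.13 of Il22 is from ctrl-Treg library 3 as the only control, where Il22 had 0 counts, so its size depends on the prior count. In that setting the spread comes from the Sora-Treg libraries alone. Il3 and Il4 stayed below 0 and were not called, although the adjusted p of Il4 was under 0.05 in all 3 limma alternatives, at 0.0235 on log2(FPKM + 1), 0.0289 on log2(FPKM + 0.1) and 0.0462 on log2(FPKM + 1) without a filter. Of the 10 genes, 2 to 3 were called higher and 2 to 3 lower under each alternative. Il17f passed the fold limit less often, with log2 fold changes of 0.97 with library totals only, 0.55 with limma on log2(FPKM + 1), filtered or not, 0.89 on log2(FPKM + 0.1), 0.72 with the single control, and 0.87 to 1.29 when each library was left out. Il13 had -0.45 on log2(FPKM + 1), filtered or not, and -1.55 to -0.80 when each library was left out, and when a CPM of 1 or more was asked of 3 libraries Il13 and Il4 were not tested. Log2(FPKM + 1) understates the change of low genes. Ifng turned to -0.0486 with library totals only, -0.0335 on log2(FPKM + 1), filtered or not, and -0.0641 on log2(FPKM + 0.1), and ranged from -0.166 to 0.196 when each library was left out. Il17a ranged from -0.291 to 0.151 when each library was left out and was 0.355 with the single control. Library totals alone moved the median of all tested genes to -0.119. For the other changes the cause was not tested.

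With the replicate number as a block, the log2 fold changes were -3.25 for Csf2, -3.82 for Il5, -1.10 for Il13, 2.31 for Il21, 4.84 for Il22 and 1.07 for Il17f, and no call among the 10 changed. The numbers are only labels here. Over all genes the block called 850 higher and 673 lower, against 848 and 669, whereas limma on log2(FPKM + 1) called 275 and 189, on log2(FPKM + 0.1) 578 and 624, and on log2(FPKM + 1) without a filter 274 and 185. Library totals alone called 720 higher and 845 lower. Depth limits the low genes most: the 95% interval of Il4, from -1.40 to 0.44, holds both a 2-fold decrease and a small rise.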
